A study of Mus musculus with 6 samples.

Results

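The Notch genes examined were the ligands Dll1, Dll4, Jag1 and Jag2, the receptors Notch1 and Notch4, the target genes Hey1, Hey2 and Hes1, and Lfng, a sugar transferase that modifies the receptors. They were matched by gene symbol in a table of 54532 genes, and all 10 were found once. Their RNA was measured in primary brain microvascular endothelial cells (BMVECs), which form the lining of small brain vessels, grown from vessel fragments of wild-type C57BL/6J mice. The cultures passed through a puromycin step, which most other brain cells do not survive, and were then grown to confluence. One group of 3 libraries was left untreated and the other group of 3 received processed mouse IL-36β (DEVD mIL-36β), a cytokine of the IL-1 family, at 100 ng/ml for 24 h. No age, sex or vehicle is given for either group. Nothing states that replicates are separate animals or cultures. The p-values therefore reflect only how far these libraries spread, and that spread may be technical. The untreated libraries carry no time, so time in culture and IL-36β cannot be told apart.

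Notch is a receptor on the cell surface that is activated by ligands on a neighbouring cell. Binding lets the proteases ADAM10 and γ-secretase cut the receptor, and the freed intracellular part joins the DNA-binding protein RBPJ and a Mastermind protein to switch on target genes of the Hes and Hey families, which are transcriptional repressors. In vessels DLL4 restrains sprouting and favours arterial identity, while JAG1 can oppose DLL4, and the sugars that Fringe proteins such as LFNG add to the receptor shift its response from Jagged to Delta ligands.

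Levels are given as FPKM, fragments per kilobase of gene length scaled for depth, here by the authors with 1 factor per library. The 6 libraries held 15180389 to 19544689 reads assigned to genes. The 10 endothelial markers, among them Cdh5, Pecam1 and Tie1, summed to 2914 to 3169 FPKM without treatment and 2925 to 3577 FPKM after IL-36β. Markers of microglia and of oligodendrocytes were under 0.5 FPKM in every library, for all 6 and all 4 genes, and the defining astrocyte gene Aqp4 and the neuron gene Snap25 had no read. Other genes of those lists were detected: the 5 astrocyte markers summed to 3.81 to 5.27 and 3.56 to 4.87 FPKM, mostly Gja1, and the neuron gene Map2 was 0.150 to 1.69 FPKM without treatment and 0.0370 to 0.333 FPKM after IL-36β. The 8 pericyte markers summed to 5.99 to 7.16 and 4.24 to 7.03 FPKM. Of the smooth muscle markers Acta2 was abundant, at up to 1323 FPKM, and the 5 genes summed to 419 to 1396 and 373 to 825 FPKM. Inflammatory genes were read for scale. Nfkbia, an NF-κB inhibitor and early NF-κB target, was 1.89-fold higher (limma adjusted p = 0.0275), and Icam1, an adhesion molecule for leukocytes, was 2.91-fold higher (limma adjusted p = 0.0284). With 1 library left out the limma adjusted p was 0.0665 to 0.178 for Nfkbia, so every such call was lost, and 0.0258 to 0.139 for Icam1. As ratios of the mean FPKM, the levels after IL-36β were 24.4 times the untreated ones for Csf3 and 19.4 times for Il6. They were 4.10 times for Sele and 2.99 times for Vcam1, the last not past the threshold (limma adjusted p = 0.112). Leaving out 1 library gave a limma adjusted p of 0.0280 to 0.0838 for Csf3, 0.0115 to 0.0495 for Il6 and 0.0665 to 0.139 for Sele. Il6 reached the filter in the 3 IL-36β libraries only.

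The cultures expressed a set of Notch genes led by Dll4 and Notch4 in both groups, although the ranges of Dll4 and Notch4 overlapped. No member passed the limma test across all genes, where 0.182% of genes did. Among the members Lfng showed the largest difference, with a mean level 3.29 times as high in untreated as in IL-36β cells. Its groups did not overlap, as in 16.2% of all genes tested, and 1 of the 3 tools, DESeq2, called it. DESeq2 called 1.95% of genes. Lfng had 11 to 54 reads per library and reached the filter of 0.5 FPKM in the untreated libraries only. Dll4, Jag2, Notch4 and Hes1 were high in a single IL-36β library, replicate 3, and within or near the untreated range in replicates 1 and 2. The ratio of Notch4 to Notch1 was higher in each IL-36β library than in any untreated library, where 3 against 3 libraries allow no permutation p below 0.1.

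**Figure D1:**
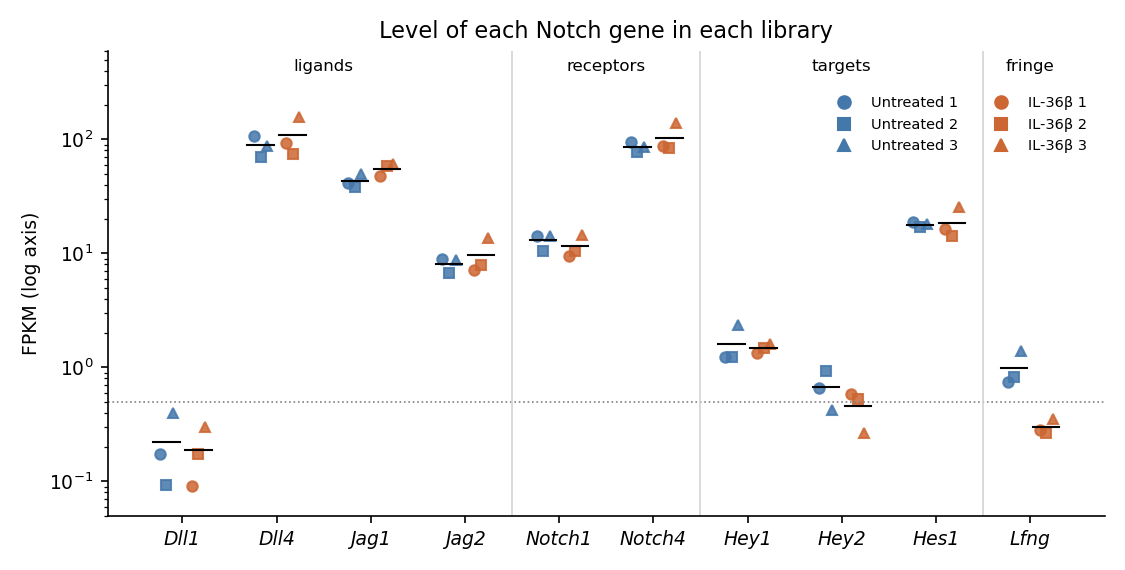
FPKM on a log axis for the 10 Notch genes, grouped by role, with 1 point per library, the shape giving the replicate number and the black bar the group mean; the dotted line marks 0.5 FPKM, the filter of the test. Dll4 and Notch4 lie near 100 FPKM, Dll1 lies under the line in all 6 libraries, and the groups are separate for Lfng alone.

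Dll4 was the most abundant ligand (chromosome 2, 119325784 to 119335962, plus strand, GRCm38). Its level was 108, 69.8 and 88.0 FPKM in the untreated replicates and 92.8, 74.4 and 159 FPKM after IL-36β, each in the order of replicates 1 to 3. The groups overlapped, with 1 high IL-36β library above all others. The fold was 1.18 (95% confidence interval 0.747 to 1.87; limma adjusted p = 0.784), and without IL-36β replicate 3 the log2 fold change was -0.07. Mean Dll4 over the 6 libraries stood above 96.4% of the 12618 genes tested. Gm14207 overlaps Dll4 on the opposite strand and had at most 87 reads in a library, and without the strand setting of the counting their reads cannot be told apart for certain.

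Jag1, the ligand that can oppose DLL4 in sprouting vessels (chromosome 2, 137081456 to 137116644, minus strand), was 41.6, 38.5 and 49.3 FPKM without treatment and 47.4, 58.3 and 60.8 FPKM after IL-36β. The 3 IL-36β values were high or near the top of the untreated range, and the lowest of them lay below the highest untreated value. The fold was 1.28 (1.03 to 1.60), not past the threshold (limma adjusted p = 0.434; DESeq2 adjusted p = 0.271). The letters in the library names were grouped here into A and B against D and E, a grouping that no label states. The log2 difference of Jag1 was 0.24 in libraries A and B and 0.27 in libraries D and E. A and B hold a single IL-36β library, and D and E a single untreated library.

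Jag2, the other Jagged ligand (chromosome 12, 112907819 to 112929776, minus strand), was 8.91, 6.68 and 8.71 FPKM without treatment and 7.22, 7.96 and 13.7 FPKM after IL-36β. Only IL-36β replicate 3 lay outside the untreated range on the high side. The fold was 1.14 (0.779 to 1.67; limma adjusted p = 0.795). Dll1, a Delta ligand better known from other tissues (chromosome 17, 15367354 to 15376872, minus strand), had 6 to 26 reads per library, a level of 0.0916 to 0.401 FPKM, and did not pass the filter on low values. Dll3 and Dlk1, other members of the ligand family, had 1 read each in all 6 libraries together.

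Dll4 made up 62.9 ± 4.38% of the summed FPKM of the 4 ligands without treatment and 61.2 ± 7.70% after IL-36β (SD, n = 3 per group), and these shares overlapped (exact permutation p = 0.8). The ratio of Dll4 to Jag1 was 2.59, 1.81 and 1.79 without treatment and 1.96, 1.28 and 2.61 after IL-36β. It was lowest in IL-36β replicate 2 and highest in IL-36β replicate 3, with no separation of the groups (exact permutation p = 1).

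Notch4, a receptor expressed mainly in endothelium (chromosome 17, 34564268 to 34588503, plus strand), was the most abundant receptor. Its level was 94.2, 77.0 and 85.9 FPKM without treatment and 87.7, 83.5 and 139 FPKM after IL-36β. As for Dll4, IL-36β replicates 1 and 2 lay within the untreated range and replicate 3 above it. The fold was 1.18 (0.852 to 1.63; limma adjusted p = 0.701), and without IL-36β replicate 3 the log2 fold change was 0.0022. The levels of Dll4 and Notch4 could not be ordered in either group, because their ranges overlapped.

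Notch1, the receptor of DLL4 in sprouting vessels (chromosome 2, 26457903 to 26516663, minus strand), was 14.2, 10.6 and 14.3 FPKM without treatment and 9.52, 10.4 and 14.6 FPKM after IL-36β. Here IL-36β replicates 1 and 2 were lower than every untreated library and replicate 3 was higher. The fold was 0.881 (0.653 to 1.19; limma adjusted p = 0.756). Its log2 fold change, -0.18, was -0.36 without IL-36β replicate 3 and -0.06 without IL-36β replicate 1. Notch2 and Notch3, the other receptors, were low. Notch2 was 1.74 ± 0.162 FPKM without treatment and 1.17 ± 0.0856 FPKM after IL-36β, with no overlap of the groups. Its fold was 0.746 (0.603 to 0.924), not past the threshold (limma adjusted p = 0.354; DESeq2 adjusted p = 0.0884). Notch3, also a gene of mural cells, was 1.53 ± 0.539 and 1.08 ± 0.201 FPKM (limma adjusted p = 0.637).

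The ratio of Notch4 to Notch1 within a library was 6.62, 7.28 and 6.00 without treatment and 9.21, 8.02 and 9.53 after IL-36β. Every IL-36β library, replicate 3 and the others, lay above every untreated library. With 3 against 3 libraries the smallest p an exact two-sided permutation test can give is 0.1, and this ratio reached it (0.333 after Benjamini-Hochberg adjustment over the 10 ratios, shares and sums computed). Notch4 made up 84.0 ± 0.557% of the summed FPKM of Notch1 to Notch4 without treatment and 88.1 ± 1.15% after IL-36β. These shares did not overlap (exact permutation p = 0.1, 0.333 adjusted). Because Notch2 and Notch3 were low, this share largely restates the ratio of Notch4 to Notch1 and is not a separate result. Ratios of this kind do not depend on how a library was scaled, but they do not show which of the receptors changed.

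**Figure D2:**
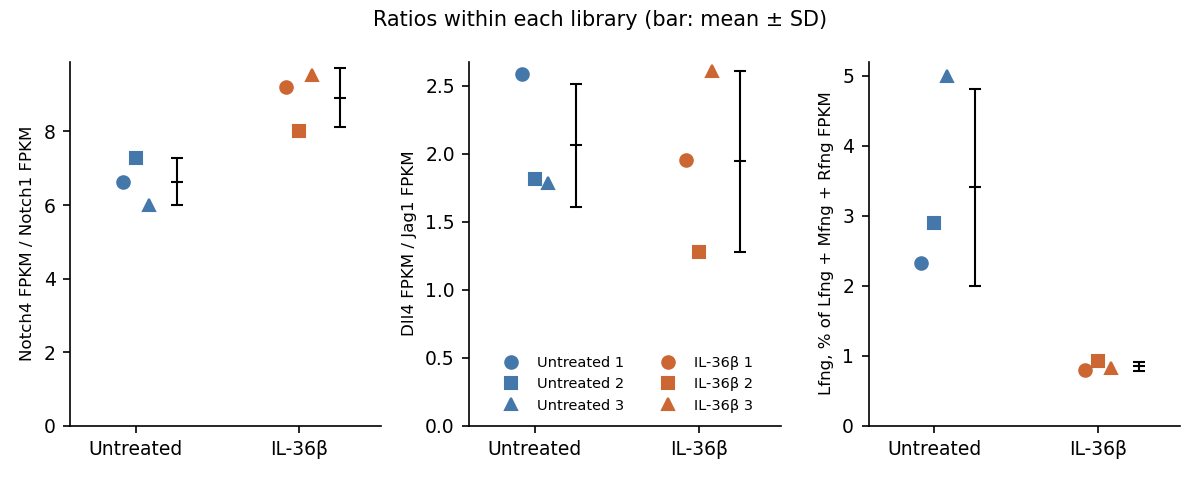
Ratio of Notch4 to Notch1, ratio of Dll4 to Jag1 and share of Lfng in the 3 Fringe genes, computed from FPKM within each library, with 1 point per library and bars for mean ± SD of 3 libraries. The first and last separate the groups (6.00 to 7.28 against 8.02 to 9.53, and 2.33 to 4.99% against 0.794 to 0.921%), while the ratio of Dll4 to Jag1 overlaps.

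Lfng encodes Lunatic Fringe, which adds N-acetylglucosamine to O-fucose on the Notch receptors (chromosome 5, 140607320 to 140615545, plus strand). It was 0.737, 0.828 and 1.40 FPKM without treatment and 0.283, 0.267 and 0.351 FPKM after IL-36β, from 30, 42 and 54 reads and from 11, 11 and 16 reads. All 3 IL-36β libraries were low and alike, below the lowest untreated library. The groups did not overlap in 16.2% of all genes tested, with IL-36β higher in 8.95% and lower in 7.24%. On the log2(FPKM + 0.5) scale, which understates changes of such low genes, the fold was 0.547 (0.389 to 0.769; limma adjusted p = 0.220), so limma did not call it. DESeq2 on the recovered reads gave a log2 fold change of -1.71 (adjusted p = 0.0400) and edgeR one of -1.70 (adjusted p = 0.142). DESeq2 called 1.95% of genes, and 0.698% as lower.

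Lfng reached 0.5 FPKM in the 3 untreated libraries only, so it entered the limma test through the group in which it was high. With a filter on the mean over all 6 libraries, added after its values were seen, its limma adjusted p was 0.233. That mean too passed 0.5 FPKM through the untreated libraries, which averaged 0.989 FPKM against 0.300 FPKM after IL-36β. With no filter on low values the limma adjusted p was 0.410. The log2 difference of Lfng was -0.71 within libraries A and B and -1.24 within libraries D and E. A and B hold a single IL-36β library, and D and E a single untreated library, the highest of all for Lfng. When 1 library was left out, the log2 difference of Lfng was -0.68 to -0.99 (limma adjusted p = 0.278 to 0.530). In bulk RNA fewer cells that express a gene and less RNA per cell cannot be told apart. Of the 5 smooth muscle markers, 2 contractile genes chosen after their values were seen, Myh11 and Cnn1, also separated the groups, at 8.07 ± 3.11 and 3.52 ± 1.32 FPKM and at 34.0 ± 9.22 and 16.9 ± 6.41 FPKM (DESeq2 adjusted p = 0.00297 and 0.0122; limma adjusted p = 0.315 and 0.360). The others overlapped, with folds of 0.728 for Acta2, 1.13 for Tagln and 1.21 for Des, and so did the summed level of the 5. Of the 8 pericyte markers Rgs5, Abcc9 and Vtn were lower without overlap, all at most 0.315 FPKM and below the filter, and the summed level overlapped. The part of these markers in the Lfng and Notch2 differences was not tested.

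The other Fringe genes were far more abundant. Mfng, Manic Fringe, was 23.3 ± 2.54 FPKM without treatment and 29.2 ± 5.81 FPKM after IL-36β (limma adjusted p = 0.563), and Rfng, Radical Fringe, was 5.13 ± 0.378 and 6.32 ± 1.33 FPKM (limma adjusted p = 0.586). Lfng was therefore a small part of the summed Fringe level, 2.33, 2.89 and 4.99% without treatment and 0.794, 0.921 and 0.823% after IL-36β (exact permutation p = 0.1, the smallest possible, 0.333 adjusted). The groups did not overlap in this share.

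Promoter windows were available from RefSeq (GRCm38.p6) for 8 of the 10 members; Hey1 and Hes1 were not matched. Each window runs from 250 bases before to 50 bases after a transcript start. They were searched on both strands for TGGGAA, the core of the site that RBPJ binds, and for the longer GTGGGAA, which contains it. Among the 8 members only the windows of Lfng and Hey2 held the core, 2 matches each, and both also held the longer form; of all 32851 promoter windows of this length 25.6% held the core and 6.38% the longer form. These 2 promoters are shown because they belong to the member with the largest difference and to a classical target, with the matches in capitals and without the bases that the annotation assigns to exons (GRCm38; Lfng chr5:140607091-140607319, plus strand; Hey2 chr10:30842802-30843033, minus strand):
Lfng: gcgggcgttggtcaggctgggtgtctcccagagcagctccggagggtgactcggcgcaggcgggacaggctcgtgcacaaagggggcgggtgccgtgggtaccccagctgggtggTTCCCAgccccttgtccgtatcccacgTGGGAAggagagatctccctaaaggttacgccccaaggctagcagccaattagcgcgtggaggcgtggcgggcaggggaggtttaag
Hey2: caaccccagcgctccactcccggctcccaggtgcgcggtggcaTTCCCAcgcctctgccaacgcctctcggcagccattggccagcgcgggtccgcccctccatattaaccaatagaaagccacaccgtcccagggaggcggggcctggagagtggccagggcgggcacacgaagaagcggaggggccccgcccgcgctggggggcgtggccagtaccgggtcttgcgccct
In Lfng the matches lie 135 and 108 bases before the start, the first on the opposite strand and the second on the strand of the gene. In Hey2 the match shown lies 207 bases before the start. A match is a description of the letters, and no binding was measured here.

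Hes1 was the most abundant of the 3 targets among the members (chromosome 16, 30064384 to 30067796, plus strand). It was 18.9, 16.9 and 17.9 FPKM without treatment and 16.4, 14.2 and 25.5 FPKM after IL-36β. Replicates 1 and 2 of IL-36β were lower than every untreated library and replicate 3 was higher, around untreated values that were close together. The fold was 1.01 (0.730 to 1.40; limma adjusted p = 0.986). Its direction changed with the processing: rescaling each library to the same total gave a log2 fold change of -0.07, and leaving out IL-36β replicate 3 gave -0.23.

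Hey1, a repressor that Notch induces in arterial endothelium (chromosome 3, 8663359 to 8667256, minus strand), was 1.24, 1.24 and 2.35 FPKM without treatment and 1.34, 1.49 and 1.60 FPKM after IL-36β. Its highest value was in untreated replicate 3, and all IL-36β values lay inside the untreated range. The fold was 0.962 (0.679 to 1.36; limma adjusted p = 0.944), and without untreated replicate 3 the log2 fold change turned to 0.18. Hey2, its partner in arterial fate (chromosome 10, 30832359 to 30842801, minus strand), was 0.657, 0.924 and 0.425 FPKM without treatment and 0.589, 0.530 and 0.263 FPKM after IL-36β, from 22 to 86 reads. The groups overlapped, with a fold of 0.825 (0.564 to 1.21; limma adjusted p = 0.700). Hey1 and Hey2 stood above 19.2% and 2.74% of the genes tested, against 78.1% for Hes1.

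In sum the 3 targets gave 20.2 ± 0.982 FPKM without treatment and 20.6 ± 5.92 FPKM after IL-36β (exact permutation p = 1). The order of the members in untreated cells was Dll4, Notch4, Jag1, Hes1, Notch1, Jag2, Hey1, Lfng, Hey2 and Dll1. In that group the ranges overlapped between the neighbours Dll4 and Notch4, Hey1 and Lfng, and Lfng and Hey2. With IL-36β the order was the same down to Hey1, followed by Hey2, Lfng and Dll1, and the ranges overlapped also between Hes1, Notch1 and Jag2 and between Hey2, Lfng and Dll1.

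**Figure D3:**
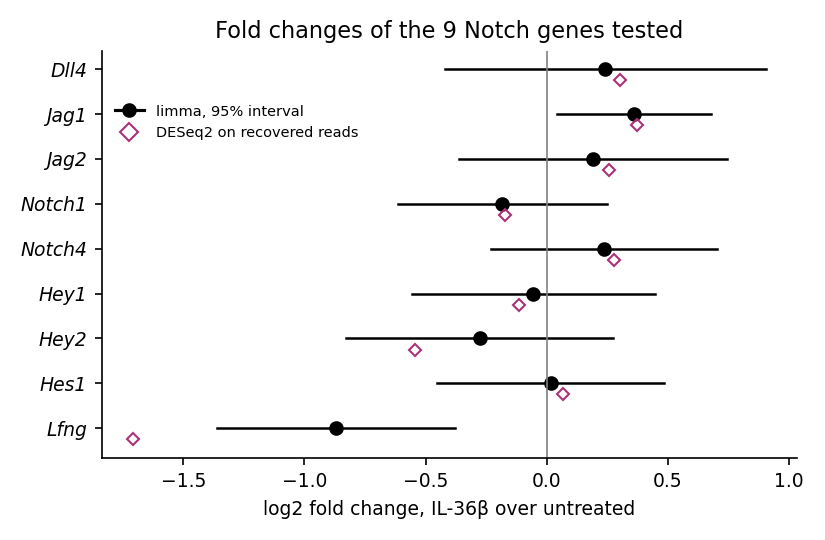
Log2 fold change of IL-36β over untreated for the 9 members tested, as limma estimates on log2(FPKM + 0.5) with 95% confidence intervals (black) and as DESeq2 estimates on recovered reads (open diamonds). The limma interval excludes 0 for Jag1 (0.04 to 0.68) and Lfng (-1.36 to -0.38), and the diamond of Lfng, a low gene, lies at -1.71.

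Across the members limma called 0 of the 9 tested, edgeR called 0 and DESeq2 called 1 (Lfng), while limma called 0.182% of the 12618 genes tested, 0.166% as higher and 0.0159% as lower, edgeR 0.274% and DESeq2 1.95%. At an unadjusted p under 0.05 there were 2 members, Jag1 and Lfng, where the share over all genes was 10.4%. The median log2 fold change of the 9 was 0.02, and that of all genes tested was 0.0023. Since Lfng entered through 1 group, these counts are a description. The authors' deposited table of differences used here holds 660 of the 54532 genes, only those with an unadjusted p under 0.05. Of these 660 genes, 0 were members.

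Replicate 3 of the IL-36β group, library E, held the highest value of 6 of the 9 members tested: Dll4, Jag1, Jag2, Notch1, Notch4 and Hes1. Over all genes tested it was the highest library in 25.7%. Relative to the untreated mean, its log2 values were 0.86 for Dll4, 0.73 for Jag2, 0.70 for Notch4 and 0.50 for Hes1, whereas IL-36β replicates 1 and 2 stood between -0.32 and 0.09 for these genes. Of the 10 endothelial markers 6 were highest in the same library, and so were 5 of the 6 tip cell markers, a list that includes Dll4. Esm1, a tip cell gene, was 37.2 FPKM there and 13.7 to 21.0 FPKM in the others. The part of these shifts in the Notch values was not tested.

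**Figure D4:**
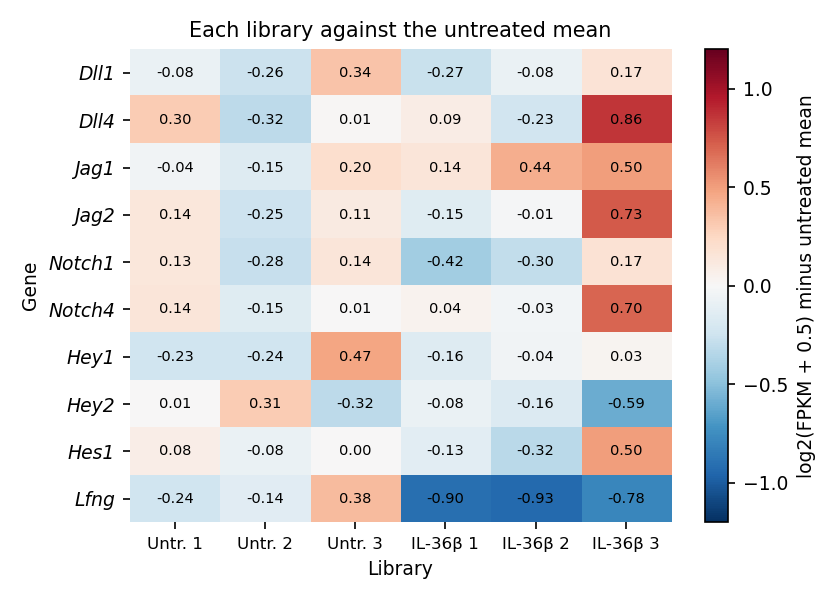
Each cell gives log2(FPKM + 0.5) of a member in a library minus its mean over the 3 untreated libraries, with members in rows, libraries in columns and red for higher values. IL-36β replicate 3 is red for Dll4 (0.86), Jag2 (0.73) and Notch4 (0.70), and Lfng is blue in all 3 IL-36β libraries (-0.90, -0.93 and -0.78).

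Over the 6 libraries Dll4 and Notch4 varied together, with Pearson's r = 0.97 and Spearman's rho = 1, and r = 0.96 without IL-36β replicate 3. Dll4 and Hes1 had r = 0.91, which was 0.65 without that library. The genes most like Dll4 among 10218 named genes with a mean of at least 1 FPKM were Fmnl3, Sema3f, Ntn1, Pear1 and Sirt5, with r from 0.986 (Sirt5) upwards. Sema3f was 10.5 to 17.4 FPKM in the other libraries and 23.3 FPKM in IL-36β replicate 3. The genes most like Lfng were Ubxn2b, Gpr157, Ctdspl, Fbxw11 and Pxk, with r from 0.97 to 0.99, and those most like Hey1 were Snx18, Zfp213, Cenpx, Smap1 and Gps1, with r from 0.97 to 0.99. When the pair of libraries farthest from the median of the member was left out, r was 0.95 to 0.99 for Dll4, 0.92 to 0.99 for Lfng and 0.87 to 0.98 for Hey1. For Lfng that pair was untreated replicate 3 and IL-36β replicate 2. The genes most like Lfng also separated the groups, so its r without that pair still held the group difference. These correlations describe 6 points that share library and depth, and such a search over many genes yields high values.

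The library names carry letters, which were grouped into sets here and not by the labels. Of all genes tested, 1.74% differed between the libraries lettered A or B and those lettered D or E in a model with treatment as a term. A and B hold untreated replicates 1 and 2 with IL-36β replicate 1, and the remaining libraries are D and E. None of the 9 members tested was among them by limma (adjusted p = 0.142 to 0.891), and with the set as a term limma again called none for IL-36β (adjusted p = 0.108 for Lfng and 0.269 for Jag1).

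The wider pathway was read from a list of 61 further Notch genes, of which 52 passed the filter. limma, edgeR and DESeq2 called 0 of these 52, and 6 had an unadjusted p under 0.05 in limma, 3 higher and 3 lower, where 10.4% of all genes tested did. The groups did not overlap in 8, 15.4% of them, against 16.2% of all genes tested. The median log2 fold change was 0.0046.

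The cleavage machinery was expressed throughout. Ncstn, the nicastrin subunit of γ-secretase, was the most abundant gene of this role, at 50.1 to 61.1 FPKM. Adam10, which makes the first cut, was 44.1 ± 5.49 FPKM without treatment and 41.0 ± 2.12 FPKM after IL-36β, a fold of 0.936 (0.782 to 1.12). Aph1b, another γ-secretase subunit, was 47.7 ± 5.78 and 39.1 ± 1.69 FPKM without overlap of the groups (limma adjusted p = 0.448).

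Rbpj, the DNA-binding partner, was 7.49 ± 0.608 and 6.16 ± 0.882 FPKM (fold 0.830, 0.678 to 1.02; limma adjusted p = 0.518). Maml1, a Mastermind coactivator, was 7.76 ± 0.298 and 7.67 ± 0.546 FPKM (limma adjusted p = 0.963). Kat2a, an acetyltransferase, was the most abundant gene of the nuclear complex list, at 9.91 to 13.9 FPKM. Among the corepressors Ctbp1 was the most abundant, at 42.1 to 56.2 FPKM, and Cir1, which links RBPJ to histone deacetylases, was 3.32 ± 0.269 and 2.53 ± 0.393 FPKM without overlap (limma adjusted p = 0.453). None of the 7 nuclear complex genes separated the groups, and 2 of the 12 corepressors did, 16.7% against 16.2% of all genes tested.

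Poglut1, which adds O-glucose to Notch, was 19.4 ± 1.55 and 23.6 ± 1.12 FPKM without overlap (limma adjusted p = 0.390). Eogt, a transferase acting on the same protein repeats, was the most abundant of its role at 25.5 to 45.2 FPKM. Of the Deltex genes, ubiquitin ligases of which some regulate Notch, Dtx4 was 0.588 ± 0.111 and 0.978 ± 0.101 FPKM without overlap (limma adjusted p = 0.416). Dtx3l was 4.22 ± 0.797 and 5.47 ± 0.426 FPKM (limma adjusted p = 0.463). Numb, an inhibitor of Notch, was 13.6 to 14.9 FPKM.

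Of the further targets Bhlhe40, a repressor related to the Hes family, was the most abundant, at 24.8 to 41.6 FPKM. Hes6, a Hes family member, was 6.87 to 10.2 FPKM (limma adjusted p = 0.756). Heyl, a further Hey gene, was 0.506, 0.290 and 0.305 FPKM without treatment and 0.504, 0.547 and 1.23 FPKM after IL-36β, again highest in replicate 3 (limma adjusted p = 0.552). Nrarp, a feedback inhibitor that Notch induces, was 2.03, 1.43 and 3.63 FPKM without treatment and 1.80, 1.39 and 4.15 FPKM after IL-36β, with replicate 3 high in both groups (limma adjusted p = 0.999). Dlk2, a Delta-like protein without the usual binding domain, was the most abundant of the other ligands, at 0.260 to 2.27 FPKM. Hes5 had no read in any library.

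In the authors' deposited table Heyl, Dtx4 and Hes7 had log2 fold changes of 0.76, 0.85 and 1.00 with p-values of 0.0301, 0.0417 and 0.0475, and the smallest adjusted p of that table was 0.999. Whether the 4 libraries of that table that match no sample label enter its p-values was not stated in any source used here. In gene ontology, the authors' deposited table for their higher genes listed the Notch signaling pathway with 4 of 365 genes, Nfkbia, Heyl, Dtx4 and Hes7, against 157 of 15819 (p = 0.492, adjusted p = 0.668). Genes lower after IL-36β could not enter that table.

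**Figure D5:**
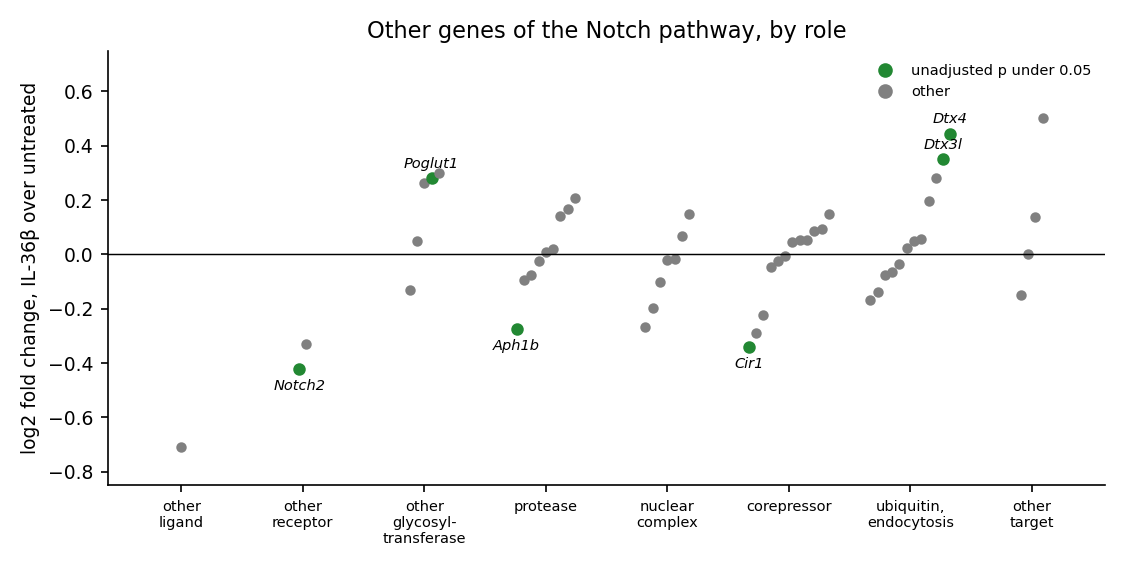
Log2 fold change of IL-36β over untreated, on log2(FPKM + 0.5), for 52 further genes of the Notch pathway by role, 1 point per gene, with the 6 genes at an unadjusted p under 0.05 in green. Points lie on both sides of 0, from -0.71 (Dlk2) to 0.50 (Heyl), and the groups overlap for both.

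Of 10 arterial markers, several of which respond to Notch in arteries, 9 were tested and limma called 0, edgeR 0 and DESeq2 0, with 1 at an unadjusted p under 0.05, where 10.4% of all genes tested were. That gene, also the only 1 of the 9 without overlap (11.1% against 16.2% of all genes), was Gja4, connexin 37, at 1.82 ± 0.231 FPKM without treatment and 3.37 ± 0.685 FPKM after IL-36β (limma adjusted p = 0.199). Efnb2, the arterial ephrin, was 20.6 to 35.4 FPKM over the 6 libraries (limma adjusted p = 0.825). The arterial list summed to 142 to 193 FPKM without treatment and 150 to 236 FPKM after IL-36β, and these ranges overlapped.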

How the data were processed

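Poly(A) RNA libraries (3 untreated, 3 IL-36β) were made with a stranded kit, per the labels' protocols. Of the authors' tools, HISAT2 2.05, featureCounts and DESeq2 1.38.3 with the mouse build GRCm38 appear in the submitters' processing notes; no source used here gives the strand setting. Deposited values were FPKM per gene, and for 660 genes raw counts, log2 fold changes and p-values, with 8 per-library columns of no sample here, which were not used. FPKM times length gave whole reads (100% within 0.01) that equal the deposited counts in 660 of 660 genes.

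Genes were tested with limma 3.58.1 (R 4.3.3), trended prior, two-sided, on log2(FPKM + 0.5), for 12618 genes with at least 0.5 FPKM in at least 3 libraries, threshold Benjamini-Hochberg adjusted p under 0.05. edgeR 4.0.16 and DESeq2 1.42.0 used the recovered reads, and other alternatives were pseudocounts, filters, scalings, weights, blocks, the library set and leaving out each library. The fit was checked on simulated data. Members, lists, named genes and alternatives were chosen with earlier results of these data known. Named were all members, pathway genes fixed by name or most abundant per role, and genes most like Lfng (lowest p), Dll4 and Hey1. Others (Poglut1, Aph1b, Cir1, Dtx4, Dtx3l, Gja4, Myh11, Cnn1, Esm1, Sema3f, Hes7, Dll3, Dlk1, Hes5, Hes6, Map2, Gja1, Tagln, Des, Rgs5, Abcc9, Vtn) were chosen after their values were seen. For 1 pathway gene under this rule no value is reported here.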

Additional observations from a re-analysis of the deposited data

How the results depend on the processing

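The number of genes past the threshold was 23 and depended on the setting: 0 with no filter on low values, 15 after rescaling to the same total per library, 78 with a block by library letter, 102 with the library set as a term, 37 in edgeR, 269 in DESeq2, and 2 to 8 with 1 library left out. With a replicate block by the number in the titles it was 13. Whether those numbers pair the libraries could not be settled. Deviations from the group means correlated at 0.21, -0.14 and 0.21 for numbers 1 to 3, and not every library correlated best with its own number. Shared library letters link the libraries differently from the numbers. These correlations were 0.21 for letter A and 0.28 for letter D, which joins untreated replicate 3 and IL-36β replicate 2. Within a group these deviations depend on each other, so they cannot exclude pairing. The number of members called was 0 in every setting run but DESeq2, where it was 1 (Lfng, log2 fold change -1.71), and the number of wider pathway genes called was 0 in every setting.

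Directions of members near 0 reversed. Letter B holds only untreated replicate 2 and letter E only IL-36β replicate 3. The block by library letter, which gave the 78 genes above, therefore compares the groups within letters A and D alone. Each of these letters holds a single untreated and a single IL-36β library, which leaves little to estimate the spread from. With the block by library letter the log2 fold change was -0.23 for Dll4, -0.20 for Jag2, -0.072 for Notch4, 0.0341 for Hey2 and -0.27 for Hes1. Hey1 was 0.013 with quantile normalization and 0.0776 with array weights. Hes1 was -0.0172 with quantile normalization, -0.0689 after rescaling, -0.013 with array weights and -0.0205 with the set term. With 1 library left out the ranges were -0.0679 to 0.48 for Dll4, -0.0795 to 0.36 for Jag2, -0.18 to 0.18 for Hey1 and -0.23 to 0.19 for Hes1. They were 0.0022 to 0.37 for Notch4 and -0.43 to -0.12 for Hey2. Jag1, Notch1 and Lfng kept their direction in every setting that gave a value, but not their size: over these settings Jag1 was 0.21 to 0.47, Lfng -1.71 to -0.60 and Notch1 -0.50 (block by library letter) to -0.06 (without IL-36β replicate 1). Hey2 reached -0.55 in edgeR; the cause of the reversals was not tested. Lfng and Hey2 gave no value with a filter of 1 FPKM in 3 libraries, and 11 to 54 reads per library limit Lfng.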
